A study of Homo sapiens with 15 samples.

Results

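G9a is the histone methyltransferase encoded by EHMT2. The comparison described here set LNCaP cells carrying a short hairpin RNA named for G9a (shG9a) against LNCaP cells carrying the control vector pLKO, which the labels call a control shRNA. It used 6 of the 15 RNA sequencing libraries of the series, 3 in each group. Genes entered when their value was at least 1 RPKM in at least 3 of those 6 libraries, which kept 11993 of 26443 genes with values. RPKM is the number of reads on a gene divided by the length of its model and by the library's size.

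The title of the series names PALI1, Polycomb repressive complex 2 and G9a, and the other 9 libraries carried hairpins named for PALI1, JARID2 and SUZ12 (shPALI1, shJarid2 and shsuz12, 3 each). LNCaP is an established prostate cancer cell line of luminal, hormone-responsive type. All groups were labelled as wild type in genotype, were grown in RPMI medium with serum, and were infected with lentivirus for 4 to 5 days. The control cells therefore share the infection with the shG9a cells. One hairpin name per target appears in the labels, its sequence is not given in the sources used here, and whether a group is a pool or a clone is not stated.

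G9a works as a pair with its close relative EHMT1 (also called GLP), held together with the zinc finger protein WIZ. The pair adds methyl groups to lysine 9 of histone H3, mainly to the level of mono- and dimethylation, in chromatin where genes are kept low. Polycomb repressive complex 2 methylates lysine 27 of the same histone. In prostate cancer cells the genes most often followed are those that answer to androgens, which include the secreted kallikreins, and the enzymes of lipid synthesis.

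Depth, worked out from the size of a 1-read step in genes with few reads, was 11.65 to 15.93 M reads in the pLKO libraries and 13.62 to 15.2 M in the shG9a libraries. A gene model of 2 kb at 1 RPKM then rests on 23.3 to 31.9 reads. Pearson's r across genes was 0.9868 to 0.9926 between replicates and 0.9544 to 0.9567 between the groups. It is a description, since genes are not independent replicates. Library 3 of shJarid2 stood apart from the other replicates of its group. In the comparison of shG9a with pLKO it enters through the shared estimate of the spread, and in each comparison with shJarid2 also through the mean of that group. With it, 3381 genes were higher and 3529 lower in shG9a than in shJarid2, and without it 3525 and 3569. The labels do not say whether the 3 libraries of a group came from separate cultures, so p-values here reflect only how far these libraries scatter, and that scatter may be technical.

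Across the 11993 genes tested, 2317 were higher (19.3%) and 3122 lower (26.0%) in shG9a than in pLKO at an adjusted p under 0.05, which is 45.4% in either direction. Log2 changes, here and below, were computed on log2(RPKM + 1) and tested with limma, and the median over all genes tested was -0.044. After conversion of the values to TPM the split turned to 3080 higher and 2247 lower, with a median of 0.061, and with median ratio scaling it was 2624 and 2845. The changes were mostly small: the median was 0.44 among the genes called higher and -0.47 among those called lower. At least a 2-fold change on the log2 scale was seen in 191 genes called higher and 235 called lower, and at least a 4-fold change in 14 and 6. The 3 + 3 libraries did not overlap in 60.1% of the genes tested, so a lack of overlap was common. The gene lists described below were chosen with earlier results of these data known, so the counts of their members are descriptions. Each is to be read beside those 19.3%, 26.0% and -0.044.

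Of the 10 luminal markers set for LNCaP cells, 7 fell and 1 rose, with a median log2 change of -0.69. Their summed level was 2145 to 2385 RPKM in pLKO and 1082 to 1146 RPKM in shG9a. KRT8, a luminal keratin, was the one that rose (85.5 to 117 RPKM). Markers of other cells were low in both groups. The basal list summed to 0.991 to 1.59 RPKM in pLKO and 1.04 to 1.31 RPKM in shG9a, with TP63 and KRT5 at 0. The immune list summed to 2.28 to 3.28 RPKM against 2.6 to 3.35 RPKM, with PTPRC and CD3E at 0, and the stromal list to 4.57 to 5.31 RPKM against 5.34 to 6.18 RPKM, with DCN at 0. The neuroendocrine list summed to 7.97 to 10.2 RPKM against 12.7 to 14.4 RPKM, with INSM1 at 0 in both groups. SYP, a synaptic vesicle protein on that list, rose from 0.66 to 1.84 RPKM. The endothelial list summed to 0.77 to 0.97 RPKM against 2.38 to 2.51 RPKM, and VWF alone made up nearly all of it (0.825 to 2.35 RPKM). In these bulk libraries, fewer cells of a kind and less RNA per cell cannot be told apart, and the part of these marker shifts in the results below was not tested.

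EHMT2 (chr6:31879759-31897687, minus strand, GRCh38) stood at 4.17, 3.51 and 3.48 RPKM in the pLKO libraries. In the shG9a libraries it stood at 0.939, 0.939 and 0.988 RPKM. Every shG9a library was below every pLKO library, and the mean was 25.7% of that in pLKO. The log2 change was -1.27 ± 0.08 (SE), with an adjusted p of 1.6e-08 in limma's test. The log2(RPKM + 1) scale understates the change of genes near or below 1 RPKM. A value in parentheses after a gene is its log2 change in shG9a against pLKO, with the SE where a second value follows. EHMT2 was also lower in shG9a than in the other hairpin groups, by log2 differences of -1.34 from shPALI1, -0.90 from shJarid2 and -1.03 from shsuz12. The targets of the other hairpins did not pass the test in shG9a: SUZ12 stood at 20.2 RPKM in pLKO and 18.9 in shG9a, and JARID2 at 8.62 and 8.06. The names that cover the PALI1 locus were C10orf12, at 4.05 and 4.84 RPKM, and LCOR, at 5.15 and 4.24 RPKM, and neither passed.

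Other members of the H3K9 machinery moved less than EHMT2. Of the 19 members tested, with the G9a complex itself counted, 3 rose and 6 fell. The G9a complex and its partners gave 2 of these rises and 1 of these falls. In all, 47.4% were called against 45.4% of all genes tested. The number that fell was 10 when shJarid2 replicate 3 was left out. EHMT1 rose from 18.4 ± 1.4 to 22 ± 0.16 RPKM (SD, n = 3), a log2 change of 0.24, adjusted p 0.0089 (limma). WIZ rose from 13.1 ± 0.97 to 16.6 ± 0.56 RPKM, a log2 change of 0.32. The methyltransferases that place the trimethyl mark in heterochromatin fell, both SUV39H2 (-0.83) and SUV39H1 (-0.39). HP1 proteins read that mark, and CBX1 and CBX3 among them fell by smaller log2 changes of -0.35 and -0.32. Of the 10 demethylases tested 40% were called: JMJD1C and KDM3A rose (log2 changes 0.83 and 0.33), and KDM1A and KDM4B fell (-0.31 and -0.39). Of the 14 subunits of Polycomb repressive complex 2 tested, 1 rose (EZH1, log2 change 0.43) and 6 fell, which is 50% called. The accessory subunits AEBP2 and C17orf96 had the lowest values there, -0.71 and -0.93.

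The largest rises and falls belonged to genes of varied kinds. The gene furthest from the rest was C2orf54 (chr2:240886048-240896889, minus strand), now named MAB21L4, a gene of keratinocyte differentiation. It read 0.331, 0.257 and 0.0957 RPKM in pLKO and 65.1, 72 and 71 RPKM in shG9a. The pLKO libraries were close to 0 and the shG9a libraries were all far above them, a log2 change of 5.84 ± 0.15 (adjusted p 1.1e-11, limma). Its mean was 0.4 RPKM in shPALI1, 4.97 in shJarid2 and 4.05 in shsuz12, and the difference of shG9a from each passed the test. C2orf54 passed the filter only through the shG9a libraries, so its p-values describe the rise and give no separate support for it. SDC4, a heparan sulfate proteoglycan of the cell surface, read 10.5, 10.9 and 9.4 RPKM in pLKO and 70.0, 77.9 and 78.3 in shG9a (2.76 ± 0.09). ABCA12, the lipid transporter of the skin barrier, read 1.32, 1.31 and 1.43 RPKM and 12.7, 13.4 and 14.8 (2.63 ± 0.12). Both were also above every other hairpin group, SDC4 by a log2 difference of at least 1.54 and ABCA12 by at least 1.46.

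**Figure D1:**
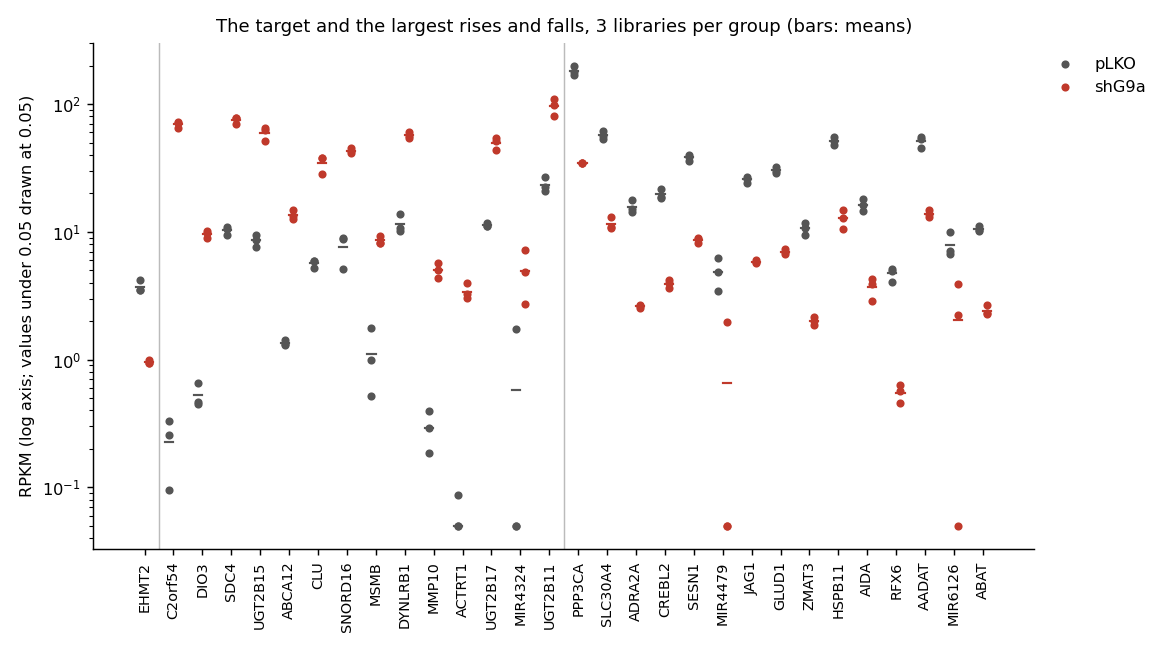
RPKM of EHMT2, of 14 of the 15 largest rises and of the 15 largest falls in the 3 pLKO and 3 shG9a libraries, on a log axis, with 1 point per library (values under 0.05 RPKM drawn at 0.05) and a bar at each mean. The groups do not overlap in any of these genes, which for the rises and falls was a condition of the choice. C2orf54 shows the widest gap, from under 1 RPKM to between 65.1 and 72.0 RPKM.

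DIO3 inactivates thyroid hormone, and it read 0.462, 0.657 and 0.449 RPKM in pLKO and 8.91, 10.1 and 9.72 in shG9a (2.8 ± 0.12). CLU, the secreted chaperone clusterin, read 5.93, 5.17 and 5.95 RPKM in pLKO and 28.3, 38 and 37.8 in shG9a (2.41 ± 0.15). Its means in shPALI1 and shJarid2 were 38.5 and 31.5 RPKM, and neither differed from shG9a at the threshold. DYNLRB1, a light chain of the dynein motor, read 13.7, 10.7 and 10.1 RPKM and 56.7, 60.9 and 54.1 (2.23 ± 0.12), and stood at 45.5, 76.2 and 46.5 RPKM in shPALI1, shJarid2 and shsuz12. MMP10, a secreted matrix protease, read 0.184, 0.393 and 0.293 RPKM and 4.34, 5.65 and 5.0 (2.21 ± 0.11), and its means were 7.23 RPKM in shPALI1, 0.105 in shJarid2 and 3.8 in shsuz12. DIO3 and MMP10, like C2orf54, passed the filter only through the shG9a libraries.

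Of the other genes among the 15 largest rises, 2 were small RNA genes. SNORD16, a small nucleolar RNA gene in an intron of RPL4, read 8.9, 8.79 and 5.15 RPKM in pLKO and 41.1, 45.4 and 42.6 in shG9a (2.39 ± 0.35). Its host RPL4 stood at 616 and 534 RPKM and did not pass the test, though it was called lower when shJarid2 replicate 3 was left out. SNORD16 was above each other hairpin group by a log2 difference of at least 2.32, and above shJarid2 by 1.91 without its replicate 3. MIR4324 read 0, 1.74 and 0 RPKM and 7.14, 2.74 and 4.84 (2.01 ± 0.38). These values rest on few reads, since the model is short. ACTRT1, an actin-related protein known from the sperm head, read 0, 0.0871 and 0 RPKM in pLKO and 3.01, 3.24 and 3.97 in shG9a (2.09 ± 0.13).

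A few genes went from under 0.1 RPKM in pLKO to at least 1 RPKM in shG9a, and ACTRT1 was one of them. LRRC31 had a mean of 0.0677 RPKM in pLKO and 2.68 in shG9a. RBP3, the retinoid carrier of the eye, had 0.0305 and 1.45 RPKM, and the pigment enzyme gene TYRP1 had 0.0848 and 1.41 RPKM. LVCAT8, a noncoding RNA gene, had 0.0856 and 1.24 RPKM. These 5 also passed the filter only through the shG9a libraries. They were picked by their values in both groups, so that they rose was fixed in advance. Their log2 changes from 1.04 (LVCAT8) to 2.09 (ACTRT1) are held down by the added 1 RPKM. Some genes also went the other way, from at least 1 RPKM in pLKO to under 0.1 RPKM in shG9a. RBP3, ACTRT1 and LVCAT8 were higher in shG9a than in each of the other hairpin groups. Because these genes were let in and picked by high values in shG9a, such differences do not test whether the rise is particular to it.

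Among the named falls, that of PPP3CA was the largest on the log2(RPKM + 1) scale. It encodes the catalytic subunit of calcineurin, the calcium-dependent phosphatase (chr4:101023409-101348278, minus strand). PPP3CA read 178, 200 and 170 RPKM in pLKO and 34.5, 34.8 and 34.4 in shG9a, a log2 change of -2.36 ± 0.08 (adjusted p 9e-11, limma). The shG9a libraries lay within 1 RPKM of each other and far below pLKO. PPP3CA was lower in shG9a than in each other hairpin group, by at least 1.6 on the log2 scale. SESN1, a stress-response inhibitor of growth signalling, read 36.1, 40.0 and 38.8 RPKM and 8.94, 8.15 and 8.78 (-2.03 ± 0.07), and was likewise lowest in shG9a, by at least 1.54. CREBL2, a leucine zipper protein, read 18.3, 21.6 and 18.9 RPKM and 3.64, 3.95 and 4.19 (-2.06 ± 0.09). RFX6, a transcription factor of the endocrine pancreas, read 4.06, 5.16 and 4.97 RPKM and 0.628, 0.563 and 0.458 (-1.88 ± 0.1), and its means in shJarid2 and shsuz12 were 7.23 and 13.6 RPKM, against 3.57 in shPALI1.

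SLC30A4 carries zinc out of the cytosol. It read 53.7, 61.3 and 56.2 RPKM in pLKO and 13, 10.9 and 10.7 in shG9a (-2.21 ± 0.22), and its mean in shPALI1, 15.1 RPKM, did not differ from shG9a at the threshold. ADRA2A, an adrenergic receptor, read 17.6, 15 and 14.4 RPKM and 2.52, 2.68 and 2.61 (-2.21 ± 0.07). JAG1, a ligand of Notch receptors, read 24.3, 25.7 and 27.1 RPKM and 5.79, 5.67 and 6.04 (-1.97 ± 0.12). A lack of overlap between the groups was a condition for all named rises and falls. HSPB11, a part of the transport machinery of cilia, fell from 51.5 ± 3.5 to 12.8 ± 2.1 RPKM (-1.94), and AIDA fell from 16.3 ± 1.7 to 3.67 ± 0.7 RPKM (-1.9). The mean of AIDA was 52 RPKM in shJarid2, above that in pLKO. MIR4479 (-1.99) and MIR6126 (-1.81) completed the list, with 0 to 1.97 RPKM and 0 to 3.92 RPKM in shG9a. Their calls were lost when libraries were left out: for MIR4479 the adjusted p was 0.059 without shG9a replicate 1, 0.06 without shG9a replicate 2 and 0.053 without pLKO replicate 2, and for MIR6126 it was 0.07 without shG9a replicate 1 (limma).

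**Figure D2:**
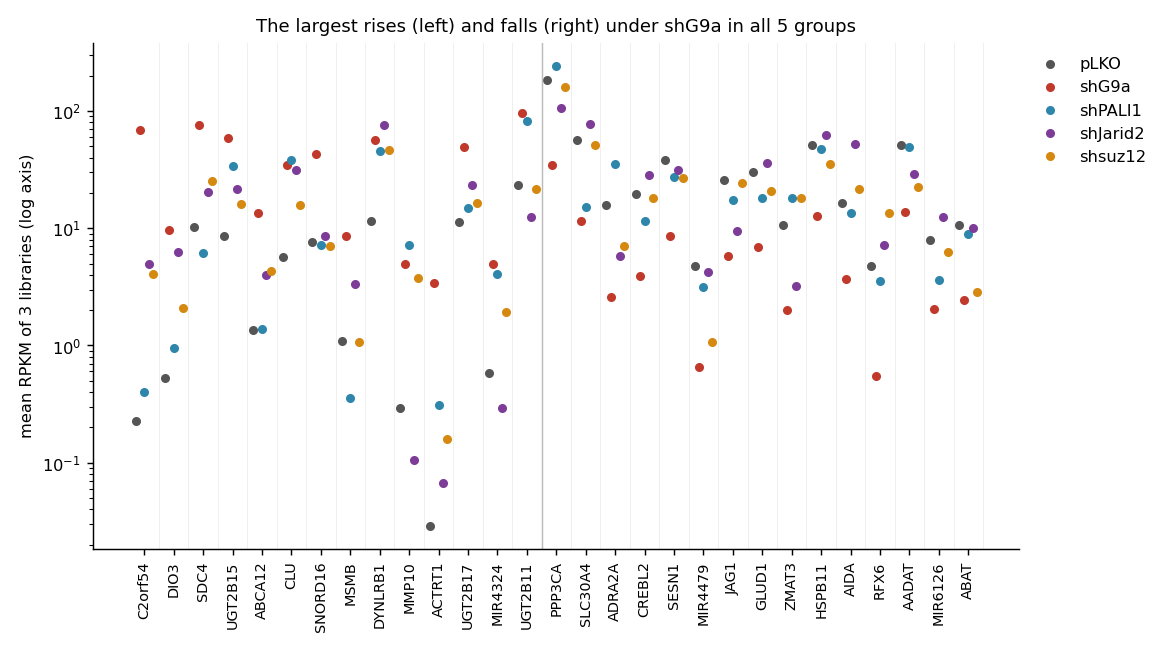
Mean RPKM of 3 libraries, on a log axis, of 14 of the 15 largest rises (left) and the 15 largest falls (right) in all 5 groups, 1 color per group. C2orf54 and SDC4 are highest in shG9a, and PPP3CA, SESN1 and RFX6 are lowest there, while CLU is at 38.5 RPKM in shPALI1.

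Among the 15 named falls was GLUD1, glutamate dehydrogenase. It read 28.7, 31.9 and 30.1 RPKM in pLKO and 6.91, 6.7 and 7.35 in shG9a (-1.97 ± 0.07). ABAT, which breaks down the transmitter GABA, read 10.1, 10.4 and 11.2 RPKM and 2.32, 2.67 and 2.26 (-1.76 ± 0.11). AADAT, an aminotransferase of lysine and tryptophan breakdown, fell from 51.5 ± 5.1 to 13.9 ± 0.82 RPKM (-1.82). In the list of glutamate and glutamine metabolism, 11 of 18 tested members fell and 3 rose, with a median of -0.48, where 26.0% of all genes tested fell and 19.3% rose. OAT (-1.11), GPT2 (-0.72), PYCR1 (-0.66) and GOT1 (-0.62) fell with GLUD1, whereas ALDH18A1, which makes the precursor of proline, rose (0.46). The serine and one-carbon enzymes had 7 of 9 members lower and 0 higher, with a median of -0.46. In shsuz12, 8 of these 9 were lower than in the shared pLKO and 0 higher (median -0.63). The glutamate list had 12 lower and 4 higher there (median -0.4), where 4150 and 2478 of 11993 genes were. In shPALI1 and shJarid2 the medians were 0.03 and -0.05 for the serine enzymes and 0.06 and 0.05 for the glutamate list. PSAT1, an enzyme of serine synthesis, read 87, 93.8 and 75.1 RPKM in pLKO and 36.4, 32.1 and 32.6 in shG9a (-1.31 ± 0.08).

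**Figure D3:**
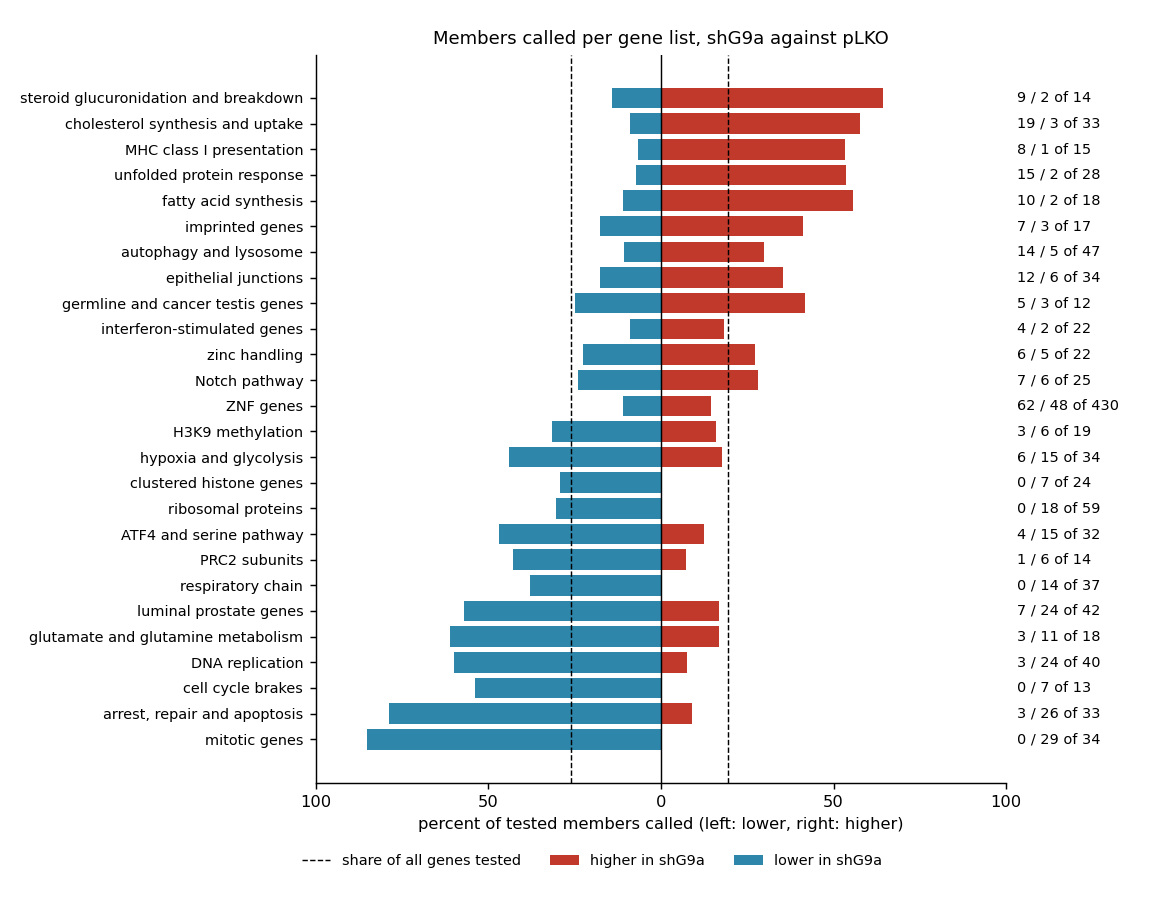
Percent of the tested members of each gene list called lower (bars to the left) and higher (bars to the right) in shG9a than in pLKO, with the counts beside the bars and dashed lines at the share of all genes tested. The cholesterol list has 19 of 33 members higher, while the mitotic list has 29 of 34 and the list of arrest, repair and apoptosis genes 26 of 33 members lower.

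Cells make cholesterol from acetyl-CoA, and the transcription factor SREBF2, escorted by SCAP and held back by INSIG1, sets the level of the enzymes. Of the 33 members tested, 19 rose and 3 fell, with a median log2 change of 0.37, and the number that rose was 17 to 24 over the alternatives. Of the 3 falls, that of LBR, a lamin receptor with sterol reductase activity (-1.03), was the one whose call held throughout. PMVK (-0.35) and ABCG1 (-0.2) lost theirs under several alternatives, and with each shG9a library or pLKO replicate 2 left out the list had 1 fall. Among the 21 enzymes, 11 rose and 2 fell. FDFT1, squalene synthase, read 63.4, 58 and 53.9 RPKM in pLKO and 133, 132 and 131 in shG9a (1.17 ± 0.07, adjusted p 2.1e-08, limma). DHCR7, a late reductase of the pathway, rose from 57.4 ± 5.2 to 114 ± 5.2 RPKM (0.98). The groups did not overlap in either gene. MSMO1 rose by 0.96, MVK by 0.88 and SQLE by 0.8 on the log2 scale. HMGCS1, an early enzyme, did not pass (15.9 and 15.7 RPKM), nor did ACAT2, IDI1, FDPS or LSS.

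All 4 regulators that passed rose: SREBF2 (0.8), SREBF1 (0.35), SCAP (0.37) and INSIG1 (0.93). INSIG1 read 36.3, 37.4 and 30.6 RPKM in pLKO and 65.2, 68 and 67.2 in shG9a. Its means in shPALI1, shJarid2 and shsuz12 were 15.3, 7.86 and 15.1 RPKM, all below pLKO, and shG9a was above each of them by a log2 difference of at least 2.06. Among the genes of uptake and export, NPC1, which lets cholesterol leave the lysosome, read 20.4, 20.8 and 23.7 RPKM in pLKO and 52, 58.2 and 60.5 in shG9a (1.36 ± 0.11). MYLIP, a ubiquitin ligase that limits sterol uptake, rose as well (1.17). NPC1L1 and ABCA1 did not pass the filter on low values.

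The cholesterol genes also stood higher in shG9a than in the other hairpin groups, in comparisons that do not use pLKO. Against shPALI1, 29 of 33 were higher and 1 lower, where 25.2% of all genes tested were higher and 24.1% lower. Against shJarid2 the counts were 23 and 4 (28.2% and 29.4% of all genes; 23 and 3 without its replicate 3), and against shsuz12 they were 15 and 4 (27.2% and 19.5%). Counts of other lists in these comparisons are to be read beside the same shares. Relative to pLKO, which all 4 hairpins share as control, the medians were 0.37 in shG9a, -0.39 in shPALI1, -0.03 in shJarid2 and 0.28 in shsuz12.

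Fatty acid synthesis starts from the same acetyl-CoA, and 10 of its 18 tested members rose and 2 fell (median 0.33). SCD, which puts the first double bond into fatty acids, read 163, 166 and 152 RPKM in pLKO and 420, 452 and 438 in shG9a (1.44 ± 0.12). FASN, the synthase itself, rose from 313 ± 56 to 670 ± 32 RPKM (1.11), and the desaturase FADS2 rose by 1.23. The elongases ELOVL5 and ELOVL6 fell (-0.44 and -0.53), though ELOVL5 lost its call under quantile normalization (-0.32, adjusted p 0.056, limma). ACLY, which supplies the acetyl-CoA, did not pass (131 and 123 RPKM). In the direct comparisons 14 of 18 were higher in shG9a than in shPALI1 and 1 lower (25.2% and 24.1% of all genes tested). Both of the others gave 9 higher and 2 lower, beside 28.2% and 29.4% of all genes for shJarid2 and 27.2% and 19.5% for shsuz12.

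The steroid-inactivating UGT2B enzymes, which attach glucuronic acid to androgens, rose as a family. UGT2B15 read 7.63, 9.46 and 8.64 RPKM in pLKO and 51, 62.3 and 64.9 in shG9a (2.65 ± 0.1). UGT2B17 read 11.2, 11.2 and 11.8 and 43.5, 54.3 and 51 RPKM (2.02 ± 0.09), and UGT2B11 20.7, 22.4 and 26.9 and 80.4, 110 and 99.2 RPKM (2.0 ± 0.11). As named rises, they were chosen among genes without overlap between the libraries. UGT2B7, UGT2B10 and UGT2B28 rose by log2 changes of 1.34, 1.15 and 1.21, so that all 6 members tested were higher, with a median of 1.67, while UGT2B4 did not pass the filter. These genes lie side by side on chromosome 4 and are near-identical copies, so reads may be split or shared among them and the single values are uncertain. TMPRSS11E, a serine protease gene of the same region, rose as well (1.73). All 6 UGT2B members were higher in shG9a than in shJarid2 and in shsuz12, and 4 were higher and 1 lower than in shPALI1. The rise was not particular to shG9a: all 6 were also higher in shPALI1 than in the shared pLKO, with a median of 1.31. In shJarid2, 2 were higher and 2 lower than in pLKO, and in shsuz12 2 and 0. The mean of UGT2B11 in shPALI1, 82.3 RPKM, did not differ from shG9a at the threshold. Of the other steroid enzymes, SRD5A1, which makes dihydrotestosterone, fell (-0.89), and DIO1, a thyroid hormone deiodinase grouped with them, rose (1.31).

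Luminal prostate cells secrete kallikreins and other products under the control of androgens. Of 42 tested members of a list of such luminal genes and their regulators, 24 fell and 7 rose (median -0.37). Transcription factors of the lineage fell: HOXB13 from 126 ± 15 to 55.1 ± 1.7 RPKM (-1.17), GATA2 (-1.06) and FOXA1 (-0.45). Among 10 secretory and surface products, 8 fell and 1 rose. KLK3, which encodes prostate-specific antigen, read 1160, 1129 and 1036 RPKM in pLKO and 341, 368 and 384 in shG9a (-1.6 ± 0.12, adjusted p 1.5e-07, limma). KLK2 read 93.1, 89.3 and 88.4 and 30.3, 30.2 and 33 RPKM (-1.5 ± 0.11). ACPP, prostatic acid phosphatase, fell (-1.34) and STEAP1 (-1.06).

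MSMB, a major secreted protein of the normal prostate, went the other way: it read 0.983, 1.78 and 0.521 RPKM in pLKO and 8.18, 9.32 and 8.19 in shG9a (2.23 ± 0.28). Among 25 further androgen-responsive members, 12 fell and 6 rose. TMPRSS2 (-0.63), PPAP2A (-1.3) and CENPN (-1.07) fell. Those that rose included ACSL3 (0.69), which is also in the fatty acid list, PMEPA1 (0.65), ELL2 (0.53), TRPM8 (0.35) and C1orf116 (0.34). FKBP5, which encodes a cochaperone, did not pass (14 and 12.9 RPKM). The secretory members were not lowest in shG9a throughout. Of the 10, 9 were lower in shG9a than in shJarid2 and 1 higher (8 and 1 without its replicate 3). Of all genes tested, 29.4% were lower and 28.2% higher there. Against shsuz12, 5 were lower and 3 higher (19.5% and 27.2% of all genes). Against shPALI1, 1 was lower and 5 higher (24.1% and 25.2%). The mean of KLK3 was 300 RPKM in shPALI1, 614 in shJarid2 and 594 in shsuz12.

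**Figure D4:**
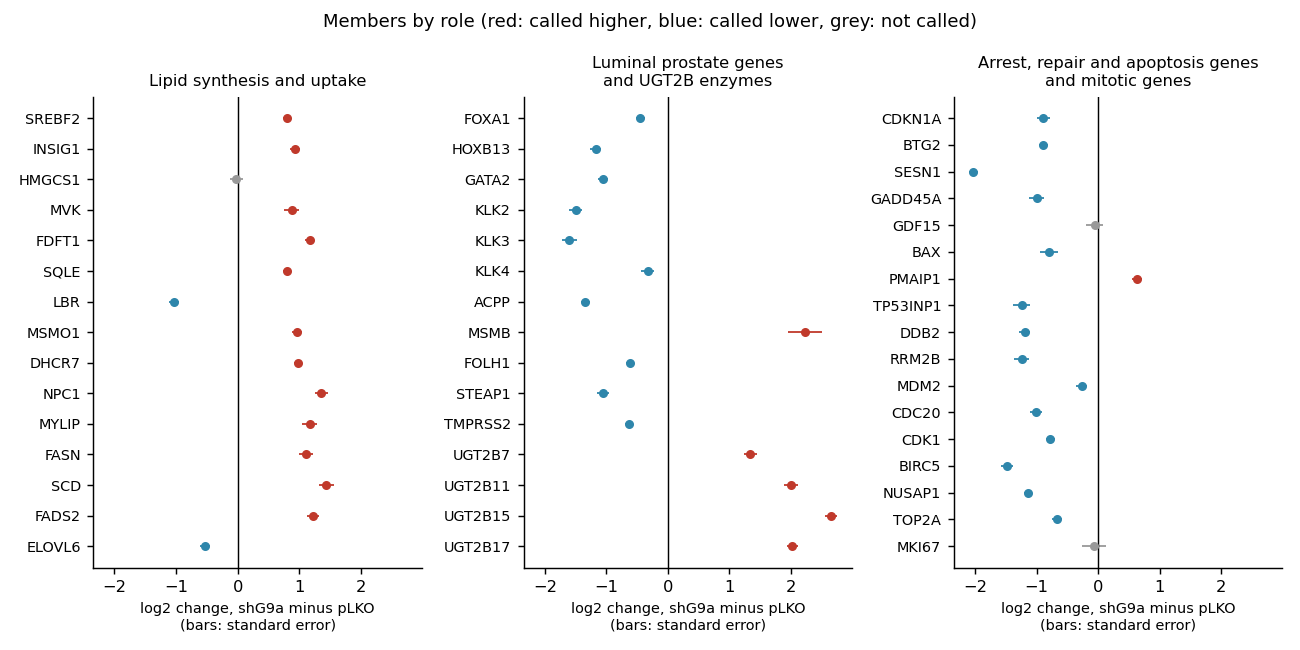
Log2 change in shG9a against pLKO, with its standard error, for members of the lipid, luminal prostate, UGT2B, arrest and repair, and mitotic lists, with 3 libraries in each group and grey points for genes that did not pass the test. NPC1 and SCD lie at 1.36 and 1.44, while KLK3 and BIRC5 lie at -1.60 and -1.48.

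Cells under stress or with damaged DNA raise a set of genes that stop the cell cycle, repair DNA and start cell death. Of 33 tested members of this list, 26 fell and 3 rose (median -0.63), and the number that fell was 23 to 27 over the alternatives. CDKN1A, the p21 inhibitor of cyclin-dependent kinases, read 201, 179 and 178 RPKM in pLKO and 98.4, 102 and 98 in shG9a (-0.89 ± 0.1). Of the arrest genes, 8 of 9 fell, SESN1 and GADD45A (-1.0) by the most, and GDF15 did not pass (687 and 654 RPKM). Of the genes of repair and metabolism, 9 of 10 fell, among them ZMAT3, DDB2 (-1.19), RRM2B (-1.24) and FDXR (-1.11). ZMAT3, an RNA-binding protein, read 9.45, 10.7 and 11.8 RPKM in pLKO and 2.17, 1.86 and 2.01 in shG9a. The apoptosis genes were mixed: BAX (-0.8) and TP53INP1 (-1.24) fell with 4 others, and PMAIP1 (0.63), TNFRSF10B (0.5) and PERP (0.46) rose. MDM2, a ubiquitin ligase, fell slightly (-0.27), and its call was lost in 7 of 16 alternatives, among them those without shG9a replicate 2 or 3 or pLKO replicate 2 or 3 (adjusted p 0.064 to 0.087, limma).

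The arrest, repair and apoptosis genes were mostly lower in shG9a than in shPALI1 and shsuz12, and less uniformly lower than in shJarid2. Of the 33, 29 were lower in shG9a than in shPALI1 and 2 higher (24.1% and 25.2% of all genes tested). Against shJarid2, 16 were lower and 5 higher (18 and 7 without its replicate 3), beside 29.4% and 28.2% of all genes. Against shsuz12, 27 were lower and 2 higher (19.5% and 27.2%). Relative to the shared pLKO, the medians were -0.63 in shG9a, 0.35 in shPALI1, -0.29 in shJarid2 and 0.18 in shsuz12. In shJarid2, 21 of the 33 were lower than in pLKO and 5 higher, where 3421 and 2922 of 11993 genes were. The mean of GADD45A was 16.3 RPKM in pLKO and 7.62 in shG9a, against 33.4, 23.7 and 26.4 RPKM in shPALI1, shJarid2 and shsuz12. That of ZMAT3 was 10.7 RPKM in pLKO, 2.01 in shG9a and 3.21 in shJarid2, against 18.1 in shPALI1 and 18.2 in shsuz12. The apoptosis genes had 2 lower and 3 higher in shG9a than in shJarid2. CDK inhibitors outside this list fell too: CDKN2A (-1.2) and CDKN2C (-1.1), while CDKN1B did not pass (26 and 25.5 RPKM).

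Of 34 tested genes of mitosis, 29 fell and 0 rose (median -0.51), and the number that fell was 22 to 31 over the alternatives. BIRC5, survivin, read 38.3, 35.6 and 31.9 RPKM in pLKO and 11.6, 12.9 and 11.4 in shG9a (-1.48 ± 0.1, adjusted p 3.5e-08, limma). CDC20, the activator of the anaphase ubiquitin ligase, read 67.9, 59.8 and 58.5 and 29, 31.3 and 30.1 RPKM (-1.01 ± 0.1). The spindle protein NUSAP1 (-1.14), the centromeric histone CENPA (-0.86) and CDK1 (-0.78) fell as well. MKI67, the proliferation marker, stood at 15.6 and 14.8 RPKM, and AURKB at 20.2 and 19.2 RPKM, and neither passed. Among 40 genes of DNA replication 24 fell and 3 rose (median -0.35), with 1 rise left when shG9a replicate 1 or 2 was dropped. Thymidylate synthase TYMS (-1.44) and the helicase subunits MCM2 (-0.64) and MCM7 (-0.59) were among those that fell.

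The fall of the mitotic genes was smaller than in 2 of the other hairpin groups. Of the 34, 26 were higher in shG9a than in shJarid2 and 1 lower (25 and 2 without shJarid2 replicate 3), and 32 were higher than in shsuz12 and 0 lower. Against shPALI1, 3 were higher and 17 lower. The medians relative to the shared pLKO were -0.51 in shG9a, -0.37 in shPALI1, -0.96 in shJarid2 and -1.25 in shsuz12. The medians of the replication genes were -0.35, -0.29, -0.55 and -0.85 in the same order of groups, with 26 of 40 higher in shG9a than in shJarid2 (27 without its replicate 3) and 34 higher than in shsuz12.

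The promoters of mitotic genes often hold the letters TTTGAA, known as the cell cycle genes homology region, near the start site. They are shown because these members fell together. In RefSeq promoters (GRCh38.p14, 250 bases before to 50 after the start, both strands searched), 28 of the 34 mitotic genes were matched, and 20 held the letters (71.4%). The share was 9.01% among the 8820 tested genes with a promoter and 15.4% among all 27305 promoters. Of 35 replication genes matched, 1 held them. Carrying them did not separate members that fell from members that did not: 17 of 24 mitotic members that fell held them, and 3 of 4 that did not pass. The capitals mark the 6 letters in 4 genes, of which MKI67 is one that did not pass. The windows lie at chr1:43358916-43358921 (CDC20), chr15:41332894-41332899 (NUSAP1), chr2:26786038-26786043 (CENPA) and chr10:128126447-128126452 (MKI67, minus strand). Positions are those of the capitals.
CDC20: cggttggatTTTGAAggagccaat
NUSAP1: cgccagggaTTTGAAccgcgctga
CENPA: agcgagcgaTTTGAAcgcgagcgg
MKI67: tcgttttcgTTTGAAttgggcggg

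The sterol regulatory element, searched as TCACNCCAC on both strands, was in 1 of the 26 cholesterol genes with a matched promoter, in 0 of 16 fatty acid genes and in 1.13% of the tested genes. The one was SREBF2, at chr22:41832972-41832980 on the plus strand, shown because the factor that binds such elements is its product.
SREBF2: gacgcgccaTCACCCCACgcaccgctt

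In the 3′ untranslated regions (3′ UTRs) of genes that fell, a word of 7 bases was more frequent than elsewhere, though most of these genes lack it. Of the 16384 possible words of 7 bases, the one whose share among the 3′ UTRs of genes called lower exceeded that among the other tested genes by the most was TTTAACA. It was in 28.5% of 2976 genes called lower and in 17.5% of 7872 others, using the longest 3′ UTR of each gene in GENCODE release 29. The others split into 19% of the genes with no call and 13.5% of the genes called higher. It also ranked at the top with the shortest 3′ UTR of each gene. TTAACAA, which overlaps it by 6 bases, came next (22.7% and 13.3%). Since the word was picked by this comparison, its shares are a description without a test. Picked in the same way, the first words of the other sets had gaps of similar or smaller size. For genes higher in shG9a it was CCCACCC, 11.1 percentage points more frequent than among the other genes, a gap slightly larger than that of TTTAACA. For genes lower than pLKO it was ATGGTGT in shJarid2 (9.6 points), AAATGAA in shsuz12 (8.4 points) and CTGAGGA in shPALI1 (6.2 points).

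Of the 15 named falls, 13 had a 3′ UTR in the annotation, and 5 of these held the word: PPP3CA with 3 sites, ABAT with 2, and CREBL2, GLUD1 and ZMAT3 with 1 each. None of the 13 named rises with a 3′ UTR held it. The word was picked with these genes among those called, so the counts are no test. Of all genes called lower 28.5% held it, and of those called higher 13.5%. The sites are shown with 10 bases on each side, as DNA on the strand of the gene (GRCh38), and the capitals mark the word. Those of PPP3CA start at 453, 1123 and 1381 bases into the region. The capitals of the first lie at chr4:101025406-101025412 (minus strand), and those of CREBL2 at chr12:12642240-12642246 (plus). For GLUD1 they lie at chr10:87051355-87051361 (minus), for ZMAT3 at chr3:179022517-179022523 (minus) and for the first site of ABAT at chr16:8783014-8783020 (plus).
PPP3CA, site 1: atcaaacattTTTAACAaaatgatgta
PPP3CA, site 2: ctttaaagttTTTAACAtaagcttgtc
PPP3CA, site 3: attcatatttTTTAACAattgtataag
CREBL2: acccatgacaTTTAACAtgttgtgatg
GLUD1: acactgtaacTTTAACAcatttaagaa
ZMAT3: tttggttaatTTTAACAttatagtgct
ABAT, site 1: caatgacaagTTTAACAtatacaaatt
ABAT, site 2: taaggccttaTTTAACAagcaagcaaa

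By the number of sites in the 3′ UTR, the median log2 change was -0.03 in 8620 genes with 0 sites, -0.11 in 1640 with 1, -0.19 in 402 with 2 and -0.3 in 186 with 3 or more. Across the same steps the share of genes called lower was 24.7%, 35.4%, 42.3% and 52.7%, and the share called higher 21.2%, 14.5%, 8.71% and 6.45%. Genes were also split into 4 equal groups by 3′ UTR length. From the shortest to the longest group, the share called lower was 44.7%, 53.4%, 40.7% and 32.9% with a site, and 28%, 26.1%, 22.5% and 19.5% without. Relative to the shared pLKO, the medians over the same site classes were -0.09, -0.05, -0.02 and -0.06 in shPALI1 and -0.02, -0.05, -0.04 and -0.08 in shJarid2. In shsuz12 they were -0.11, -0.11, -0.12 and -0.21. Because the word was picked on the calls of shG9a, these values do not test whether the pattern is particular to that hairpin.

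**Figure D5:**
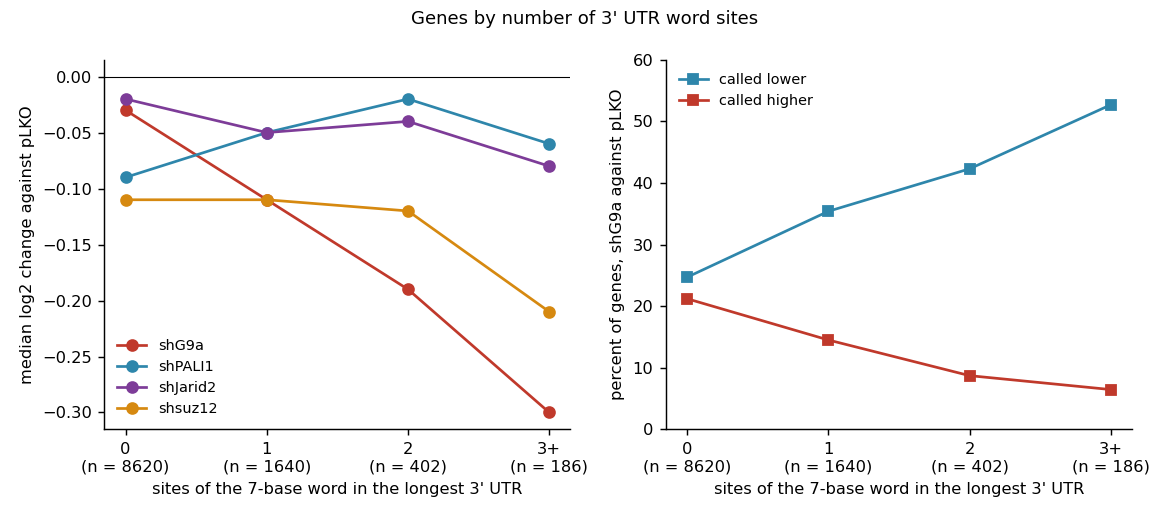
Median log2 change against pLKO by the number of 3′ UTR sites of the 7-base word, with 1 line for each hairpin (left), and percent of genes called lower and higher in shG9a (right). The line of shG9a runs from -0.03 with 0 sites to -0.3 with 3 or more, and the percent called lower from 24.7 to 52.7. The word was picked on the calls of shG9a.

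The word was in the coding sequence of 7.85% of the genes called lower, 7.09% of those called higher and 7.54% of all tested. Genes with a coding site and no 3′ UTR site were called lower in 25.2% of cases, and those with neither in 24.6%. EHMT2 itself holds the word in its coding sequence, at chr6:31882982-31882988 on the minus strand. It is printed because EHMT2 is the gene the hairpin is named for.
EHMT2: gctccaggaaTTTAACAagattgagcc

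The protein-folding response of the endoplasmic reticulum had 15 of 28 members higher and 2 lower (median 0.30). EIF2AK3, a stress sensor, rose from 3.58 ± 0.16 to 8.23 ± 0.15 RPKM (1.01), and XBP1 (0.66), CALR (0.46) and SEL1L (0.52) rose. HSPA5, the chaperone most often used to follow this response, fell (-0.4) and so did CANX (-0.26), whose call was lost without shG9a replicate 1 or 3 or pLKO replicate 2 (adjusted p 0.08, 0.058 and 0.1, limma) and under quantile normalization and TPM.

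Epithelial junction genes were mixed, with 12 of 34 higher and 6 lower. CDH1, E-cadherin, read 113, 120 and 120 RPKM in pLKO and 224, 240 and 240 in shG9a (0.99 ± 0.08), and the claudins CLDN8 (1.59) and CLDN4 (1.34) rose, while the desmosomal cadherin DSC2 fell (-0.81). The mean of CDH1 in shsuz12, 257 RPKM, did not differ from shG9a at the threshold. CDH1 belongs to 10 tested genes reported as repressed by G9a in other cells, of which 3 rose and 4 fell. The other rises there were KRT19 (1.22) and TP53INP2 (1.66), and the falls dropped to 2 when shG9a replicate 1 or 3, or pLKO replicate 1 or 2, was left out. TP53INP2 stands with MAP1LC3A (0.78) in the autophagy list, where 14 of 47 rose and 5 fell (median 0.04). BECN1, a core autophagy gene, fell (-1.54).

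The lists of immune genes did not move alike. In antigen presentation 8 of 15 members rose and 1 fell, with 5 rises when a mean of at least 3 RPKM was asked for. TAPBP (1.24) and the regulator NLRC5 (1.22) rose and the immunoproteasome subunit PSMB10 fell (-0.9). B2M, the light chain, did not pass (67.4 and 64.2 RPKM). Interferon-stimulated genes had 4 of 22 higher and 2 lower, with a median of -0.03. Of 41 germline and cancer testis genes, 12 were tested, of which 5 rose and 3 fell. ASZ1, a germ cell gene that passed the filter only through the shG9a libraries, rose from 0.237 ± 0.087 to 3.48 ± 0.28 RPKM (1.86). MAGEC2 rose by 1.56, and as MAGE genes are close copies its reads may be shared. Of 53 clustered protocadherins 5 passed the filter, and 3 of them rose.

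The transcription factor MYC read 126, 113 and 108 RPKM in pLKO and 57.9, 59.1 and 55 in shG9a (-1.0 ± 0.07). Of 13 tested members of the immediate early list, 5 rose and 4 fell, with a median of 0.24. JUND (1.76), DUSP1 (1.18) and JUN (0.74) were among those that rose. In the Notch pathway 6 of 25 tested members fell, among them JAG1, JAG2 (-0.58), RBPJ (-0.78) and HES1 (-1.07), and 7 rose, among them MAML1 (0.88) and ADAM10 (0.68). The number that rose was 11 when shJarid2 replicate 3 was left out. Hypoxia and glycolysis genes had 15 of 34 lower and 6 higher: HK1 (-0.8) and the glucose carrier SLC2A1 (-0.76) fell, and ADM (1.49) rose. Of 430 tested genes whose symbols start with ZNF, 62 rose and 48 fell, and after conversion to TPM 90 and 26 did.

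In all, 400 genes that rose and 538 that fell against pLKO also differed in the same direction from each of the other 3 hairpin groups, and 398 and 551 did without shJarid2 replicate 3. By the smallest of these 3 differences, C2orf54 (3.59), SNORD16 (2.32), INSIG1 (2.06) and ALOX12B (1.96) led the rises. ALOX12B, a lipoxygenase of the skin barrier, stood at 1.37 RPKM in pLKO and 5.46 in shG9a. LRRN1 (2.15), AIDA (1.65), PPP3CA (1.6) and STYX (1.59) led the falls. LRRN1, a membrane protein with leucine-rich repeats, stood at 3.91 RPKM in pLKO and 1.42 in shG9a, and at 9.7, 12.4 and 24.7 RPKM in shPALI1, shJarid2 and shsuz12.

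Within 250 kb of the 15 named rises lay 67 other tested genes, of which 21 were higher and 14 lower, with a median of 0.08. These are 31.3% and 20.9%, against 19.3% and 26.0% of all genes tested, and 4 of the 67 are TMPRSS11E and genes of the UGT2B cluster. Within the same distance of the 15 named falls lay 85, of which 12 were higher and 27 lower, with a median of -0.09, or 14.1% and 31.8%. Among the falls, MIR4479 and MIR6126 had the most neighbours, and their own calls were lost when libraries were left out. Among the rises, MIR4324 had the most, and its values rest on few reads. SLPI, a protease inhibitor near SDC4, rose (1.48). BLOC1S6 (-1.44) and the pseudogene HMGN2P46 (-2.62) fell beside SLC30A4, and BROX (-1.16) overlaps AIDA and fell with it. HMGN2P46 had the lowest log2 change of all genes tested. No source states that the counting used strand, so reads of overlapping genes cannot be told apart. DIO1 rose beside HSPB11, which fell.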

How the data were processed

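RNA was sequenced from LNCaP cells in 15 libraries. The authors deposited 1 table of RPKM values, and reads were aligned with STAR to hg38 per the submitters' processing notes. Not given in the sources used here are the version of STAR, the counting tool and the gene models. Of 26475 names, 26443 carried values, 28 had been turned into dates, and 2 stood on 2 lines. Since no counts were given, log2(RPKM + 1) was fitted with limma 3.58.1 (R 4.3.3, eBayes with trend, two-sided). All 15 libraries shared 1 model with group as the term, and Benjamini-Hochberg adjustment over 11993 genes was called at 0.05. Per-library depth came from 1-read steps, and at least 94.2% of such values in the 6 libraries came out whole.

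Named genes were EHMT2 and the other targets, the 15 largest rises and falls without overlap between the libraries and with at least 2 RPKM in the higher group (clone, LINC, antisense and pseudogene names skipped), genes near 0 in pLKO, and up to 6 members per list role. HMGN2P46, neighbours, genes singled out by their difference from the other hairpins, and list members named beyond that rule were chosen after their values were seen. Some genes that the rule or the lists hold are not reported here, though the counts include them. The members and lists were chosen with earlier results of these data known. Words and locations came from GENCODE 29 and promoters from RefSeq. Same-numbered replicates did not deviate together (correlations -0.039, 0.055 and 0.038), so the main fit has no block. On simulated data with 200 planted genes among 11993 for shG9a against pLKO, 72 of 100 were recovered at 1.5-fold and 95 of 100 at 2-fold, with 10 false calls. The planted genes lay above about 2 RPKM, and the noise was independent between libraries. Far fewer genes were changed than were called in the data, so these rates do not cover genes near 1 RPKM or the real share of changes. Pseudocount, filter, scaling, block and left-out libraries were varied. Python 3.11.15 and pandas 2.3.3 made the summaries.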

Additional observations from a re-analysis of the deposited data

How the results depend on the processing

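With each of the 6 libraries or shJarid2 replicate 3 (an alternative chosen after seeing the data) left out, the genes called numbered 1862 to 2781 higher and 2575 to 3778 lower in shG9a than in pLKO, and the upper ends came without shJarid2 replicate 3. Other settings gave 1859 to 3080 and 2247 to 3518. Against shPALI1 the left-out range was 2634 to 3493 higher and 2436 to 3354 lower, against shJarid2 2918 to 3525 and 3135 to 3569, and against shsuz12 2733 to 3850 and 1960 to 2729. The log2 change of EHMT2 was -1.31 to -1.2 with libraries left out, and it had no value where a mean of at least 3 RPKM was asked for, since the gene was then filtered out. A replicate block gave 2253 higher and 3016 lower, and since the numbers share only a name, no pairing is claimed.

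Of 690 gene results recomputed, 493 kept their call in every alternative, though genes without a call may have changed sign. Of the others, 97 lost a call in at least 1, 99 gained one, and 1 reversed. The one was GNAS, -0.02 in the model as reported and 0.12 with quantile normalization (adjusted p 0.023); the cause was not tested. Ribosomal protein genes, 18 of 59 lower, gave 5 without pLKO replicate 1 and 39 without shJarid2 replicate 3, and respiratory chain genes, 14 of 37 lower, gave 7 and 24. Imprinted genes, 7 of 17 higher, gave 4 without shG9a replicate 1. Depth limits genes near 1 RPKM and short RNA genes most.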
